A study of Mus musculus with 30 samples.

Results

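The centromere-side first megabase of the mouse autosomes was examined for insertions of 2 gene therapy vectors. It comprises the sites whose start, counted from 0 as in the files, is at least 3000000 and below 4000000 on chromosomes 1 to 10 and 12 to 19 of build GRCm39; positions below are counted from 1. These 18 regions of 1 Mb held 10376 of 1232282 nuclear site records in piggyBac (PB) livers and 7693 of 949422 in Sleeping Beauty (SB) livers, or 18069 of 2181704 in all. Chromosome 11 is left out by the rule. Each region was set against the next 5 Mb of the same chromosome, where 41730 PB and 32888 SB records lay. All mice were Fah knockouts, a model of tyrosinemia type I (TT1) that lacks the last enzyme of tyrosine breakdown, and all received a therapeutic transposon. The labels put 17 livers in the PB group and 13 in the SB group, with 1 library from each whole liver, and give no strain, age, sex, dose or monitoring time. Livers without a vector are not analysed here.

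Mouse autosomes are telocentric: the centromere sits at one end, and long arrays of satellite repeats separate it from the first genes. Assembled chromosomes begin with a placeholder for this unassembled end, so the first megabase counted here is the first stretch into which reads can be placed. The piggyBac transposase inserts at TTAA and the Sleeping Beauty transposase at TA. The files list PB sites as 4 bp and SB sites as 2 bp. The first site of any liver lay at position 3000047 on chromosome 3, 3002344 on chromosome 18 and 3044228 on chromosome 9. On the other 15 chromosomes it lay between 3050111 (chromosome 4) and 3060050 (chromosome 14). The counted megabases therefore hold less than 18 Mb of sequence with sites: 17.168 Mb lay between the first site and position 4000000.

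The gene table at hand describes another build, GRCm38.p6, so no site was assigned to a gene. Its gene order shows which protein-coding genes come first on these chromosomes, with predicted gene models left out. The first genes were taken without an upper limit of position, so they need not lie within the first megabase. On chromosome 15 they are Selenop, the selenium transport protein secreted by the liver, Ccdc152 and Ghr, the growth hormone receptor. On chromosome 8 they are Insr, the insulin receptor, Arhgef18 and Pex11g, a factor of peroxisome division. On chromosome 3 the first are Hnf4g, a nuclear receptor, Zfhx4, a transcription factor, and Pex2, a peroxisome assembly factor. On chromosome 10 they are 9230019H11Rik, H60c, a ligand of the receptor NKG2D, and Ppp1r14c, an inhibitor of protein phosphatase 1. These chromosomes were chosen after their values were seen, as those with the highest and lowest PB density ratios below.

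A liver contributed from 148 to 1031 first-megabase sites in PB (median 645) and from 48 to 1015 in SB (median 625). SB liver 13 stood apart with 4893 nuclear sites in all, against 34929 to 120219 in SB livers 1 to 12. PB livers 13 to 17 held 148 to 338 first-megabase sites and PB livers 1 to 12 held 551 to 1031. SB livers 1 to 12 held 274 to 1015. For many of the values that SB liver 13 sets or moves, but not for all, the value without it is given too.

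The first question was whether the end of the chromosome takes more or fewer insertions than the next 5 Mb of its arm. In every liver of both groups the first megabase was denser than the next 5 Mb. It was not denser on average than the adjacent megabase alone, as the 100 kb steps below show. The PB density ratio ran from 1.06 (liver 14) over a median of 1.24 to 1.40 (liver 16), and the SB ratio from 1.08 (liver 12) over a median of 1.16 to 1.30 (liver 13). The highest of the other SB livers was 1.24. All ratios lay above 1, and the PB and SB ranges overlapped. On the log2 scale the PB ratio averaged 0.32 ± 0.09 (SD, n = 17 livers; sign-flip permutation test by exact enumeration, two-sided, p = 1.53e-05, adjusted p = 0.000183 over 12 measures). The SB ratio averaged 0.23 ± 0.08 (SD, n = 13; sign-flip permutation test, p = 0.000244, adjusted p = 0.000977). Both p-values are the smallest these designs can give. PB livers 1 to 12 and PB livers 13 to 17 each averaged 0.32, and SB livers 1 to 12 averaged 0.22. The test shows that livers shared the excess, and since all livers share the same genome it does not show that these megabases differ from other megabases. As a share of a liver's nuclear sites, the first megabases held 0.843% ± 0.054 in the 17 PB livers and 0.822% ± 0.059 in the 13 SB livers (SD).

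The PB excess over the next 5 Mb was 0.09 higher than the SB excess on the log2 scale, or 1.06-fold (permutation test, two-sided, p = 0.00874, adjusted p = 0.021). This difference rested on a few chromosomes and on the stretch chosen. It did not pass when chromosome 7, 8, 15 or 18 was left out, and without chromosome 15 it was 0.02 (permutation test, adjusted p = 0.71). It was also smaller and did not pass with the next 2 Mb as the comparison (0.03), with chromosome 11 included (0.02), without positions shared between livers (0.01) or without the densest 10 kb bin of each chromosome (0.02). With the next 10 Mb it was 0.08 (permutation test, adjusted p = 0.052). The excess within each group passed in each of these settings, but with the next 2 Mb it was 0.11 in PB and 0.08 in SB (sign-flip permutation tests, adjusted p = 0.0055 and 0.037). Counted from 3200000, a start chosen after seeing the data, it was 0.54 in PB and 0.36 in SB. The PB minus SB difference was then 0.18 (permutation test, adjusted p = 6e-05). It was 0.10 both in livers 1 to 12 and without SB liver 13 (permutation tests, adjusted p = 0.00195 and 0.0058).

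**Figure D1:**
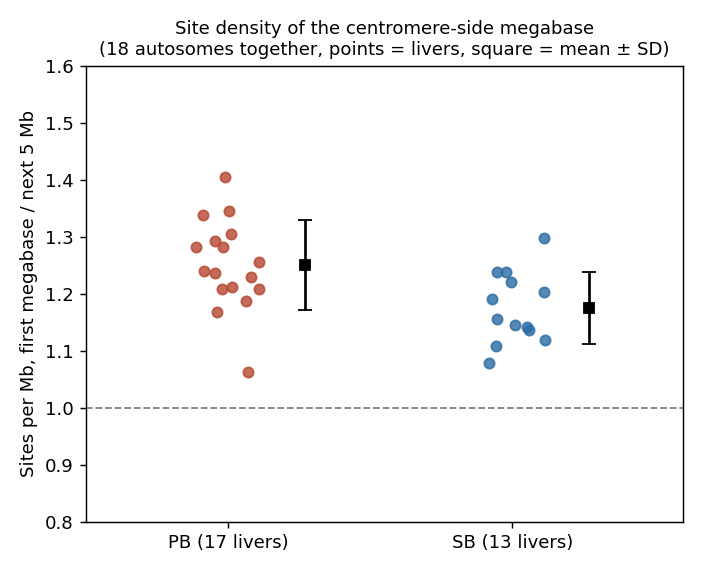
Site density of the first megabase divided by that of the next 5 Mb, with the 18 autosomes pooled. Each point is a liver, PB on the left and SB on the right, squares with bars are means ± SD, and the dashed line marks equal density; PB points run from 1.06 to 1.40 and SB points from 1.08 to 1.30, all above 1.

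The excess was not shared by all chromosomes. Each 1 Mb window of the autosomes with 5 Mb after it was compared with that stretch in the same way, which gives the background. In PB, 10 of 18 first-megabase windows passed as denser than their next 5 Mb and 5 as sparser (limma, adjusted p under 0.05), where 38.4% of all 2315 autosomal windows tested passed as denser and 49.1% as sparser. In SB, 8 of 18 passed as denser and 2 as sparser, where 36.7% and 43% of all windows did. The median log2 ratio of the 18 windows was 0.26 in PB and 0.12 in SB, against -0.13 and -0.07 over all windows.

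Chromosome 8 had the highest ratio in both groups. Its window held 3.93 to 8.37 sites per 10000 nuclear sites in PB livers (median 5.80) and 4.17 to 10.2 in SB livers (median 5.66), so the ranges overlapped. The SB upper end is SB liver 13, and the highest of the other SB livers was 6.86. This was 2.96 times the density of its next 5 Mb in PB (log2 1.56, SE 0.07, limma adjusted p = 4.7e-53) and 2.13 times in SB (log2 1.09, SE 0.08, limma adjusted p = 2e-27). The density itself did not pass as different between PB and SB (log2 difference 0.09, SE 0.09, limma adjusted p = 0.4). The ratio did, by 0.47 on the log2 scale (limma adjusted p = 0.00014).

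Chromosome 15 was the densest of the 18 windows in PB. It held 5.69 to 14 sites per 10000 in PB livers (median 10.0) and 4.09 to 8.07 in SB livers (median 6.52), and it ranked 53 among 2578 windows in PB and 264 in SB. The PB median lay above the highest SB liver, and the ranges overlapped. The SB lower end is SB liver 13, and the lowest of the other SB livers was 5.66. It was the widest difference between PB and SB among the 18 windows in favour of PB (log2 difference 0.66, SE 0.08, limma adjusted p = 4.6e-10). Against its next 5 Mb it was 2.39 times as dense in PB and 1.46 times in SB (limma adjusted p = 4.1e-55 and 2.7e-12).

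Chromosomes 5, 7, 12, 13, 16 and 17 also passed as denser in both groups. Their PB ratios ran from 1.29 (chromosome 13) to 1.83 (chromosome 5), and their SB ratios from 1.24 (chromosome 7) to 1.53 (chromosome 5). Chromosomes 4 and 18 passed in PB (1.16 and 1.24 times, limma adjusted p = 0.004 and 9.3e-07), while in SB they stood at 1.10 and 1.03 times (limma adjusted p = 0.12 and 0.57). For chromosome 4 the difference between the groups did not pass (limma adjusted p = 0.57), whereas for chromosome 18 it did (limma adjusted p = 0.012). Chromosomes 2 and 19 did not pass in either group, with ratios of 0.997 and 0.972 in PB and 1.07 and 0.942 in SB. Chromosome 19 was nonetheless a dense window (PB mean 8.16 ± 0.998 and SB mean 7.16 ± 1.30 per 10000, SD), beside a dense arm.

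Chromosomes 3 and 10 went the other way. The chromosome 3 window held 0.451 to 1.54 sites per 10000 in PB livers (median 1.15) and 1.15 to 6.13 in SB livers (median 2.55), so that the ranges overlapped at their edges. The SB upper end is SB liver 13, and the highest of the other SB livers was 4.12. In PB it had 0.479 times the density of its next 5 Mb (log2 -1.06, SE 0.14, limma adjusted p = 4.2e-13), and in SB 0.974 times (limma adjusted p = 0.73). The chromosome 10 window held 0.356 to 4.15 per 10000 in PB (median 2.03) and 2.23 to 10.2 in SB (median 3.41), where the highest SB value is that of SB liver 13 and the next 5.49. It had 0.501 times the density of its next 5 Mb in PB (limma adjusted p = 2.6e-17) and 0.833 times in SB (limma adjusted p = 0.0049). Both groups were sparse there, PB more so. Chromosomes 1, 9 and 14 passed as sparser in PB (0.793, 0.810 and 0.755 times), and chromosome 6 in SB (0.849 times). Several of these calls depended on the stretch compared. With the next 2 Mb, PB chromosome 13 passed as sparser (log2 -0.49) and PB chromosome 9 as denser (log2 0.48), and PB chromosomes 16 and 17 turned to -0.09 and -0.12. SB chromosomes 7, 13 and 17 turned to -0.29, -0.13 and -0.10 there. Without positions shared between livers, PB chromosome 18 turned to -0.04. The PB calls of chromosomes 1, 9 and 14 were then lost (log2 -0.10, -0.13 and -0.14, limma adjusted p = 0.38, 0.33 and 0.17), and PB chromosome 6 passed as sparser (log2 -0.28, limma adjusted p = 0.0045). The PB and SB densities of the 18 windows ranked much alike (Spearman rank correlation 0.903, Pearson r 0.878, over 18 windows that share sequence, mappability and base composition), and less so over their 1800 bins of 10 kb (Spearman rank correlation 0.555, Pearson r 0.344).

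**Figure D2:**
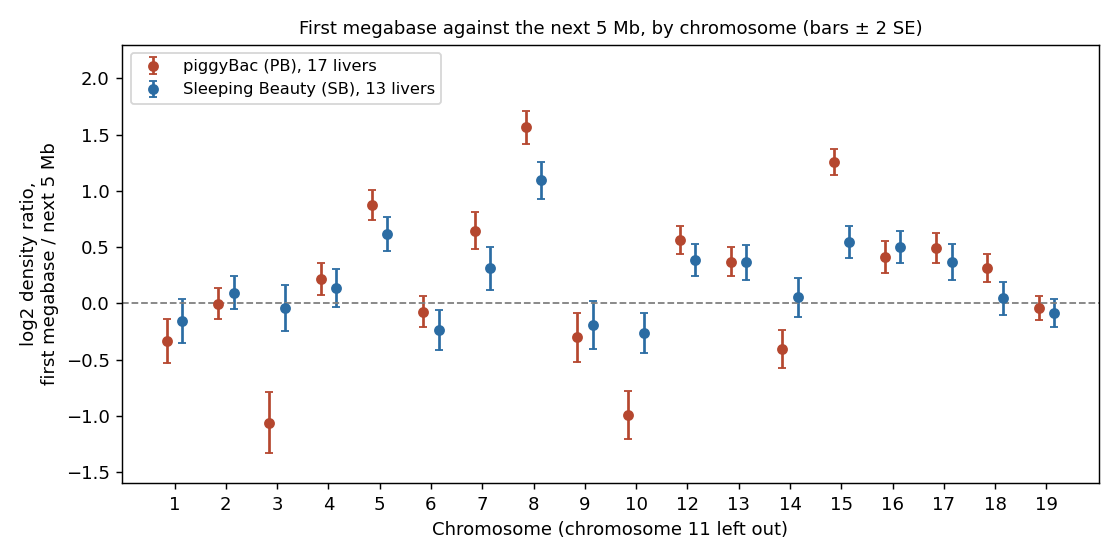
Log2 ratio of the density of the first megabase over the next 5 Mb for each of 18 chromosomes, PB left of SB. Points are limma estimates with bars of 2 SE, and the dashed line marks equal density; chromosomes 8 and 15 stand highest in PB (1.56 and 1.26), and chromosomes 3 and 10 lowest (-1.06 and -0.996).

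PB and SB densities were then compared directly. Of the 18 windows, 4 passed as denser in PB (chromosomes 6, 13, 15 and 19) and 6 as denser in SB (chromosomes 1, 3, 9, 10, 14 and 16), where 19.3% and 38.9% of all 2578 windows tested passed (limma-voom, adjusted p under 0.05). Chromosome 13 passed at a limma adjusted p of 0.0495 and was lost in livers 1 to 12, without the filter on low windows, by limma-trend and under the liver number as a block (limma adjusted p = 0.062, 0.054, 0.052 and 0.091). Chromosome 19 (limma adjusted p = 0.015) was lost with column 4 numbers of at least 10 and by limma-trend (limma adjusted p = 0.062 and 0.07). Chromosomes 6, 13 and 19 were lost without shared positions (limma adjusted p = 0.38, 0.77 and 0.53). The median log2 difference of the 18 windows was 0.07, against -0.16 over all windows. Relative to that median window, 9 passed as denser in PB and 2 in SB. The chromosome 3 window had the widest difference in favour of SB, at means of 1.08 ± 0.31 per 10000 for PB and 2.80 ± 1.33 for SB (SD; log2 difference -1.16, SE 0.17, limma adjusted p = 6.8e-08). The next was chromosome 10, with 2.14 ± 0.88 in PB and 4.07 ± 2.03 in SB (SD; log2 difference -0.79, SE 0.14, limma adjusted p = 4.7e-06). Without SB liver 13 the SB means were 2.53 ± 0.92 on chromosome 3 and 3.55 ± 0.87 on chromosome 10 (SD, 12 livers), and the log2 differences -1.15 and -0.78. With shared positions removed, which takes more PB than SB sites, 2 windows passed in each direction: chromosomes 12 and 15 as denser in PB (log2 0.31 and 0.37) and chromosomes 3 and 10 as denser in SB (log2 -0.59 and -0.65). Chromosomes 14 and 16 were lost there (limma adjusted p = 0.84 and 0.64), and chromosomes 1 and 9 turned to 0.08 and 0.03. Chromosome 14 was also lost by limma-trend (limma adjusted p = 0.15).

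Within the megabase the density was uneven, and its lowest part was the leading 200 kb. With the 18 chromosomes together, PB livers held 0.593 to 3.67 sites per 10000 in the leading 100 kb (median 1.94), and SB livers 2.24 to 6.13 (median 4.34). That SB upper end is SB liver 13. In the following 100 kb the PB livers held 1.71 to 6.11 (median 4.12) and the SB livers 4.46 to 7.55 (median 6.13). PB was lower than SB in both steps, with overlapping ranges, and part of the leading step lies before the first site. From 200 to 700 kb into the stretch the PB means ran from 10.2 to 11.6 per 100 kb and the SB means from 7.79 to 10.3. Over the leading 200 kb PB averaged 2.98 ± 0.70 sites per 10000 per 100 kb (SD, n = 17) and SB 5.17 ± 0.61 (SD, n = 13). Over the remaining 800 kb the PB average was 9.80 ± 0.59 and the SB average 8.98 ± 0.64, against 6.75 ± 0.16 in PB and 6.99 ± 0.21 in SB over the next 5 Mb. The steps were looked at after the values were seen and are not tested. At the outer edge the last step inside held 8.27 ± 1.87 in PB and 8.23 ± 1.20 in SB, and the first step outside 9.47 ± 1.24 in PB and 7.55 ± 1.44 in SB.

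**Figure D3:**
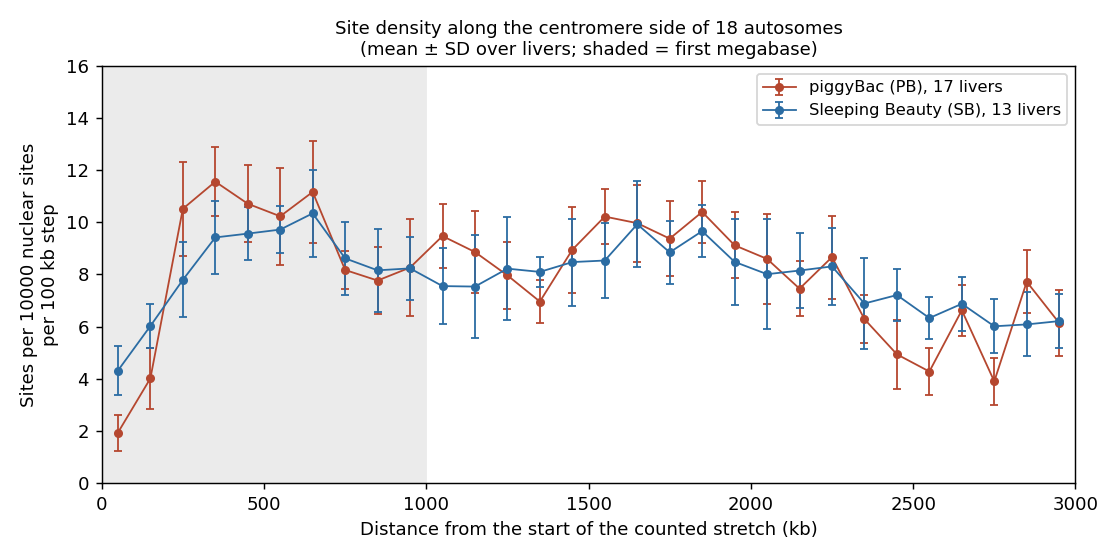
Sites per 10000 nuclear sites in steps of 100 kb over 18 autosomes together, as mean ± SD over PB and SB livers, against the distance in kb from the start of the counted stretch (shaded: first megabase). The leading step holds 1.94 ± 0.69 in PB and 4.32 ± 0.95 in SB, and within the shaded part PB is highest from 200 to 700 kb and SB from 300 to 700 kb.

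Pile-ups were sought in bins of 10 kb. A pile-up was a bin with at least 10 times the mean density of the 10 kb bins in the next 5 Mb of its chromosome, in the same group. PB had 25 among 1800 first-megabase bins (1.39%), which held 1367 or 13.2% of the PB records there. In the next 5 Mb it had 68 among 9000 bins (0.756%), with 8.98% of the PB records there. SB had 3 (0.167%), with 81 records (1.05%), and 4 in the next 5 Mb (0.0444%, with 0.170% of records), of which 0 remained without SB liver 13. No bin was a pile-up in both groups, but with only 25 in PB and 3 in SB among 1800 bins this says little about whether their places differ. Since the bins were chosen by their values, they are described without a test. The PB pile-ups lay on 9 chromosomes, among them 7 on chromosome 8, 6 on chromosome 15 and 4 on chromosome 7. The threshold follows the next 5 Mb, so bins pass it more readily where the megabase is denser than its arm, as on chromosome 8 (2.96 times in PB). The shares and the counts by chromosome therefore partly restate the density ratio.

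The densest PB bin was on chromosome 6 from 3980001 to 3990000, with 113 records at 47 positions in 15 of 17 livers and 58 of them on the minus strand. PB livers held 0 to 13 sites in it (median 7), and SB livers 0 to 3 (median 1). The bin on chromosome 4 from 3400001 to 3410000 held 93 PB records at 28 positions in all 17 livers, between 1 and 11 each (median 6), against 7 SB records. On chromosome 8 from 3460001 to 3470000, the bin that stood out most from its arm (34.0 times the next 5 Mb mean), there were 82 PB records at 26 positions and 5 SB records. The bin of chromosome 13 from 3940001 to 3950000 held 75 PB records and 5 SB records. That of chromosome 15 from 3260001 to 3270000 held 79 PB records and 7 SB records. These PB bins were used by nearly all livers, on both strands and at many positions.

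In SB the densest bins depended on SB liver 13. The first, on chromosome 3 from 3000001 to 3010000, stayed first without that liver. The next, on chromosome 2 from 3670001, chromosome 12 from 3610001 and chromosome 13 from 3500001, each held 2 sites of SB liver 13 and without it ranked 62, 207 and 457. Chromosome 19 from 3910001 ranked 5 with and without it. Without SB liver 13 the densest after chromosome 3 were on chromosome 13 from 3420001 to 3430000 (38 records), chromosome 10 from 3060001 to 3070000 (27 records) and chromosome 16 from 3060001 to 3070000 (22 records). The 3 SB pile-ups were on chromosomes 3, 7 and 8. Without SB liver 13 they numbered 2, the chromosome 3 and chromosome 13 bins, and the bins of chromosomes 7 and 8 stood at 4.19 and 5.10 times.

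A 10 kb clustering index was computed as the pairs of sites in the same bin over those expected if each megabase's sites were spread evenly over its bins. It was 3.19 ± 0.61 in the first megabase and 2.92 ± 0.59 in the next 5 Mb in PB (SD, n = 17), and 1.84 ± 0.83 and 1.91 ± 1.96 in SB (SD, n = 13). SB liver 13 set the SB order. In SB livers 1 to 12 the index was 1.61 ± 0.16 in the first megabase and 1.37 ± 0.16 in the next 5 Mb (SD, n = 12). The log2 ratio averaged 0.13 ± 0.29 in PB and 0.15 ± 0.35 in SB and did not pass (sign-flip permutation tests, adjusted p = 0.14 and 0.17). The ratio of SB liver 13 was -0.89, and the other SB livers averaged 0.24 (sign-flip permutation test, adjusted p = 0.0058). In livers 1 to 12 the PB ratio was 0.13 (sign-flip permutation test, adjusted p = 0.0035). Leaving out the sparse leading 200 kb turned both ratios, to -0.06 in PB and -0.09 in SB (sign-flip permutation tests, adjusted p = 0.53 and 0.46).

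The strands leaned slightly to minus over the first megabase. In PB, 52.2% ± 2.3 of a liver's sites were on the minus strand (SD, n = 17), above 50% in 13 of 17 livers. In SB it was 52.1% ± 3.1 (SD, n = 13), above 50% in 9 of 13 livers. No test was planned for this share. The lean was widest at the start of the stretch: 417 of 738 PB and 577 of 962 SB records were on the minus strand in the leading 200 kb. In the leading 50 kb the shares were 80.9% of 47 PB and 85.6% of 97 SB records, but few chromosomes have sites there. The PB records of that stretch lay on chromosomes 18 (33) and 3 (14), and the SB records on chromosomes 3 (67), 18 (28) and 9 (2). In the remaining 800 kb the shares were 51.7% in PB and 51.5% in SB, and over the next 5 Mb 50.4% in PB and 51.3% in SB. Without the one-sided bins of chromosomes 3 and 4 described below, the leading 200 kb had 55.9% minus-strand records in PB (725 records left) and 57.1% in SB (883 left). The leading bin of chromosome 18, with 20 of 20 PB records on the minus strand, was not removed for these shares. Of first-megabase bins with at least 10 records, 6 of 290 in PB and 4 of 156 in SB had at least 85% of them on one strand, or 2.07% and 2.56%. In the next 5 Mb these shares were 0.823% in PB and 0.808% in SB.

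The leading bin of chromosome 3 held 12 PB records in 8 of 17 livers, 11 of them on the minus strand, and 57 SB records in all 13 livers, 53 of them on the minus strand. PB livers held 0 to 3 sites there (median 0) and SB livers 1 to 10 (median 4). The SB records lay at 49 positions from 3000047 to 3009892. On chromosome 4 from 3090001 to 3100000 there was 1 PB record, on the minus strand, and 22 SB records in 10 livers, 20 of them on the minus strand. On chromosome 13 from 3420001 to 3430000 all 17 PB records were on the minus strand, in 13 livers, and 34 of 38 SB records, in 11 livers. Many of the chromosome 13 records were near the smallest column 4 number (the whole number beside the strand): 7 of 17 PB records and 26 of 38 SB records had a number below 10, with medians of 21 in PB and 5 in SB. The leading bin of chromosome 18 held 20 PB records, all on the minus strand, and 12 SB records, 7 of them on it. The chromosome 19 bin from 3670001 held 15 PB records, 13 of them on the minus strand, and 3 SB records. Other bins were plus-sided: 1 of 13 PB records was on the minus strand on chromosome 14 from 3750001, 1 of 10 PB records on chromosome 6 from 3200001, and 1 of 10 SB records on chromosome 2 from 3450001. The part of such low numbers in the one-sided bins was not tested.

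**Figure D4:**
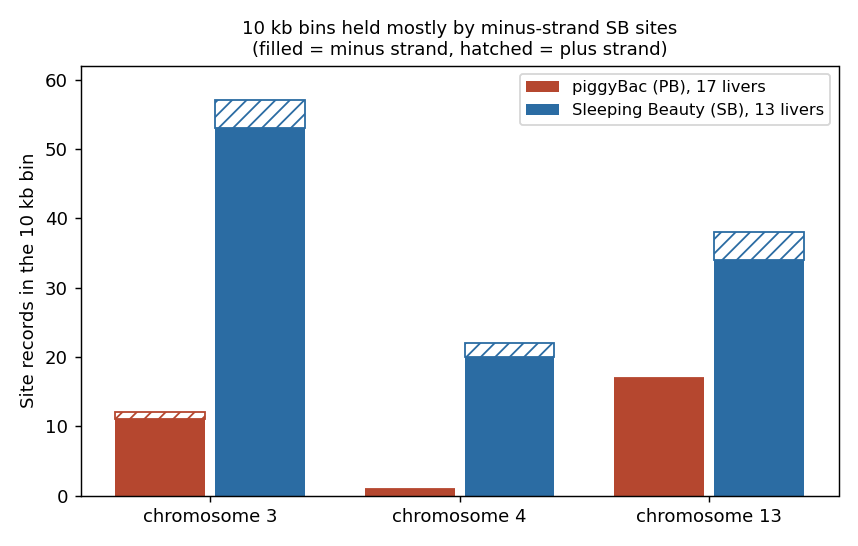
Site records in 3 bins of 10 kb, on chromosome 3 from 3000001, chromosome 4 from 3090001 and chromosome 13 from 3420001, PB left of SB. The filled part of each bar counts minus-strand records and the hatched part plus-strand records: 11 of 12, 1 of 1 and 17 of 17 in PB and 53 of 57, 20 of 22 and 34 of 38 in SB are on the minus strand.

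Reuse of positions was compared next. A site was reused when its position and strand also occurred in another liver of its group. In PB livers 27.1% to 35.3% of first-megabase sites were reused (median 30.6%), against 24.4% to 31.2% in the next 5 Mb (median 27.9%). The mean difference was 2.65 ± 1.94 percentage points (SD), higher in 16 of 17 livers (sign-flip permutation test, p = 4.58e-05, adjusted p = 0.000275). In SB livers 0.730% to 3.72% of first-megabase sites were reused (median 2.72%), against 1.38% to 2.70% in the next 5 Mb (median 1.94%), a difference of 0.566 ± 0.761 points, higher in 10 of 13 livers (sign-flip permutation test, p = 0.023, adjusted p = 0.0459). Without SB liver 13 the highest SB reuse in the next 5 Mb was 2.44%. Mean reuse in the next 5 Mb was 28.1% in PB and 1.96% in SB, so the comparison of the groups depends on the scale. In percentage points the PB difference exceeded the SB difference by 2.08 (permutation test, p = 0.00092, adjusted p = 0.00276), and a relative difference was not tested. Each coincidence counts in both livers, so these values do not come from independent livers and the p-values may be too small.

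The PB reuse difference did not pass without chromosome 8, and it was smaller but passed without chromosome 15 or 18. On chromosome 8, 42.5% of first-megabase PB sites were reused, against 15.3% in the next 5 Mb of that chromosome. Without chromosome 8 the mean difference was 1.30 points, without chromosome 15 it was 1.37 and without chromosome 18 it was 1.52 (sign-flip permutation tests, adjusted p = 0.056, 0.036 and 0.027). Over the 18 omissions it ran from 1.30 to 4.76 points, the highest without chromosome 19. Chromosomes 15 (38.0% against 26.0%) and 18 (39.4% against 24.5%) also stood above their arms, while chromosomes 1, 3, 9, 12, 14, 16, 17 and 19 lay below theirs, from 8.61% against 19.1% on chromosome 9 to 28.8% against 39.6% on chromosome 19. The gap between PB and SB did not pass without chromosome 8, 15 or 18, nor with chromosome 11 included. With the next 2 Mb as the comparison the PB difference was 0.254 points and the SB difference 0.396 (sign-flip permutation tests, adjusted p = 0.69 and 0.18). With every liver thinned to 4893 sites the PB difference was 0.169 points and the SB difference -0.116 (sign-flip permutation tests, adjusted p = 0.82 each), where few sites remain.

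The SB reuse lay partly in the one-sided bins. The bins of chromosomes 3, 4 and 13 shown above held 36 of the 200 reused SB sites of the first megabase, and without them 2.16% of all SB sites were reused in place of 2.60%. The SB difference no longer passed when any of 8 chromosomes was left out, and stood between 0.383 and 0.744 points over the 18 omissions.

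**Figure D5:**
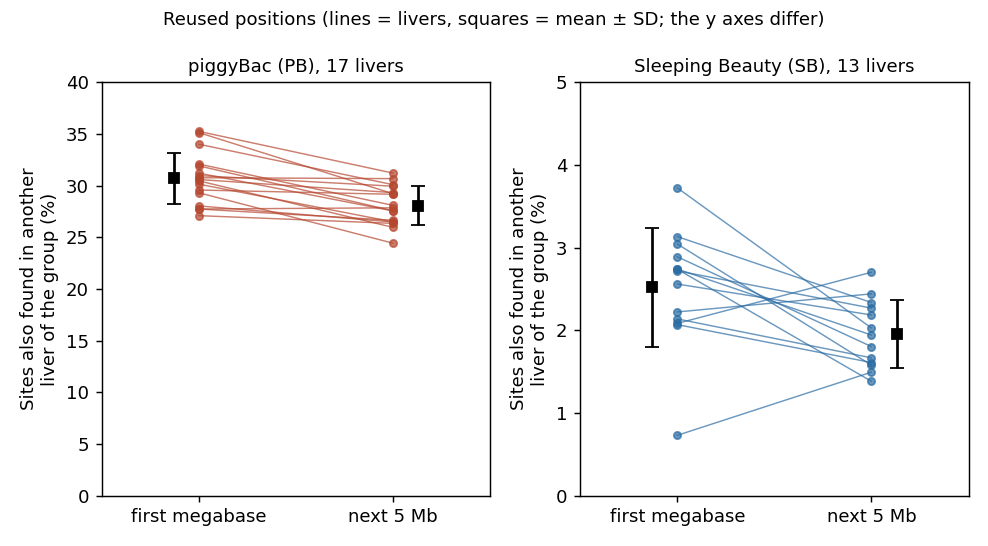
Percent of sites reused within the group, in the first megabase and in the next 5 Mb, with a line for each liver, PB on the left and SB on the right (the y axes differ). Squares with bars are means ± SD: 30.7 ± 2.5 and 28.1 ± 1.9 in PB, 2.52 ± 0.72 and 1.96 ± 0.41 in SB.

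Of 7539 PB positions in the first megabase, 1371 (18.2%) were found in 2 or more livers. Among all these positions, 40 (0.531%) were in 8 or more and 12 (0.159%) in 10 or more. In the next 5 Mb the shares were 16.4%, 0.390% and 0.147% of 31256 positions, and the differences were not tested. All 40 had records on both strands, as did all but 4 of the 122 positions in 8 or more livers in the next 5 Mb. The PB position found in most livers was on chromosome 4 from 3403264 to 3403267, in 13 livers with 6 plus-strand and 13 minus-strand records, inside the dense chromosome 4 bin. The position on chromosome 18 from 3281214 to 3281217 was also in 13 livers, with 6 plus-strand and 7 minus-strand records. Those on chromosome 6 from 3988446 to 3988449 and chromosome 15 from 3262225 to 3262228 were in 12 livers each, and that on chromosome 13 from 3816432 to 3816435 in 11. Their median column 4 numbers ran from 68 to 84.

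Of 7508 SB positions, 164 (2.18%) were found in 2 or more livers and 10 (0.133%) in 3 or more, of which 9 had all records on one strand. In the next 5 Mb 1.79% were found in 2 or more livers and 19 (0.0589%) in 3 or more, of which 10 had all records on one strand. The SB position in most livers, on chromosome 13 from 3425007 to 3425008, had 5 minus-strand records with a median column 4 number of 5. A chromosome 4 position, 3090457 to 3090458, and a pair on chromosome 3, 3005982 to 3005983 and 3008816 to 3008817, had 4 minus-strand records each. These 4 lie in the one-sided bins described above. The remaining one, on chromosome 2 from 3418879 to 3418880, had 3 plus-strand records with numbers from 67 to 112. Of the targets, 18 were hit by both systems, with the SB site inside the PB site, or 0.239% of PB and 0.240% of SB positions, against 0.227% and 0.220% in the next 5 Mb.

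The column 4 number, whose meaning is not given in the sources used here, did not pass as different between the first megabase and its neighbourhood. The median over a liver's sites ran from 17 to 158 in PB (69 in the middle liver) and from 33 to 83 in SB (48), against 17 to 158 (69) and 34 to 85 (51) in the next 5 Mb. Without SB liver 13 the SB upper end in the next 5 Mb was 83. The log2 ratio averaged -0.02 ± 0.04 over PB livers and -0.03 ± 0.06 over SB livers (SD), and neither passed (sign-flip permutation tests, adjusted p = 0.17 and 0.14), nor did their difference of 0.02 (permutation test, adjusted p = 0.49). Sites with a number below 10 made up 11.1% of PB and 11.4% of SB records in the leading 200 kb, and 8.30% and 8.07% in the remaining 800 kb. The highest number in PB was 372, on the minus strand of chromosome 5 from 3600430 to 3600433 in liver 4, followed by 362 at the chromosome 4 position found in 13 livers (liver 6) and 348 on chromosome 13 from 3685224 to 3685227 (liver 16). In SB it was 519 on chromosome 6 from 3562041 to 3562042 in liver 13, followed by 489 on chromosome 4 and 426 on chromosome 6, both in liver 5. These were 2.18 to 5.66 times the median number of their liver in PB and 5.97 to 7.52 times in SB.

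Chromosome 11, left out by the rule, held 10.0 ± 1.6 sites per 10000 in PB and 14.6 ± 2.3 in SB (SD) in the same window, or 1.88 and 2.57 times its next 5 Mb. Including it left the direction of the density excess as it was and raised the clustering ratio to 0.31 in PB and 0.85 in SB. The density ratio was then 0.38 in PB and 0.36 in SB, and the reuse difference 4.78 points in PB and 3.83 points in SB.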

How the data were processed

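Each of the 30 deposited liver tables lists chromosome, start, end, and a cell with the strand and a whole number. Per the submitters' processing notes, cutadapt, BWA and GRCm39 were used, without versions. How sites were called and filtered is not given in the sources used here. The smallest number listed is 3. Libraries came from nested PCR with a biotinylated transposon-specific primer, per the labels' protocols. Such reads are not independent molecules, and numbers of sites carry counting error. A pair of deposited tables pooled over livers 1 to 12 was not used.

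Sites were counted with pandas 2.3.3 and tested with scipy 1.17.1 and numpy 2.4.6 under Python 3.11.15; figures used matplotlib 3.10.9. The 12 per-liver measures used sign-flip tests by enumeration within a group and 100000 resamples between PB and SB, Benjamini-Hochberg adjusted together. For 1 Mb windows averaging 1 site or more over livers, R 4.3.3 ran limma 3.58.1 with voom weights and the nuclear sites of a liver as library size. Window ratios to the next 5 Mb were log2 values, with 0.5 added to the window's count and to the mean count per Mb of the next 5 Mb. The pooled density ratio of a liver had nothing added. All windows were fitted. The window tests and the per-liver density and clustering measures were run on simulated data. For the ratio to the next 5 Mb these had even density, unlike the real windows. The sign-flip test was run only on equal values. The permutation test and the reuse and column 4 measures were not checked this way. The negative binomial count model of the plan was not run, and limma was used on the same site counts in its place. The regions, bins and lists were chosen with earlier results of these data known. The named items are all 18 windows, the 5 densest bins and 5 most reused positions of each group, and the 3 sites with the highest number; one-sided bins, 100 kb steps and gene names were added after their values were seen. The liver numbers shared by 13 pairs were not taken to pair livers, since r did not exceed 0.1 in every pair (10 of 13 did, range 0.044 to 0.187), and 2 of 13 PB livers correlated best with the SB liver of their own number.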

Additional observations from a re-analysis of the deposited data

Results flagged for a closer look

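These results differed between PB and SB under the same contrast, the first megabase against the next 5 Mb of its chromosome, by a test of the difference itself. The density ratio over 18 chromosomes was 0.089 higher in PB on the log2 scale (permutation test, adjusted p = 0.021). The reuse difference was 2.08 percentage points higher in PB, where reuse in the next 5 Mb averaged 28.1% against 1.96% in SB (permutation test, adjusted p = 0.00276). Neither passed when chromosome 8, 15 or 18 was left out. By chromosome, 8 of 18 log2 ratios differed (limma, adjusted p under 0.05). Of these, 5 were higher in PB, against 21.5% of all windows tested, and 3 higher in SB, against 33.6%. The ratio was higher in PB on chromosome 15 by 0.71, chromosome 8 by 0.47, chromosome 7 by 0.33, chromosome 18 by 0.27 and chromosome 5 by 0.26 (limma adjusted p = 1.8e-11, 0.00014, 0.019, 0.012 and 0.023). It was lower in PB on chromosomes 3, 10 and 14, with PB minus SB differences of -1.02, -0.73 and -0.46 (limma adjusted p = 1e-07, 2.7e-06 and 0.00062).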

How the results depend on the processing

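The density excess of PB and of SB kept its direction and passed in every alternative run for it, the 18 omissions of a chromosome included. The other results depended on choices as follows, and where no cause is named it was not tested. Log2 values are given for density, column 4 number and clustering, and percentage points for reuse. The PB minus SB difference in density ratio was 0.0331 with the next 2 Mb, 0.0783 with the next 10 Mb, 0.0155 with chromosome 11 included, 0.0127 without positions shared between livers and 0.0171 without the densest bins. Reuse with the next 2 Mb was 0.254 in PB, 0.396 in SB and -0.143 for the difference, which was 0.949 with chromosome 11 included. SB reuse was 0.669 with strand ignored. Thinned to 4893 sites, which leaves few sites, reuse was 0.169 in PB, -0.116 in SB and 0.284 for the difference. The column 4 ratio passed in SB with chromosome 11 included (-0.0437). Its PB minus SB difference was -0.00319 with a number of at least 10 and -0.00915 with mean log2 numbers. The clustering ratio passed in livers 1 to 12 (0.126 in PB, 0.239 in SB), without SB liver 13 (0.239 in SB), with the next 2 Mb (0.296 in SB), with chromosome 11 included (0.310 in PB, 0.854 in SB, difference -0.544), with a number of at least 10 (0.158 in PB, 0.200 in SB) and with sites within 10 bp merged (0.147 in PB, 0.262 in SB). From 3200000 it was -0.0603 in PB, -0.0926 in SB and 0.0322 for the difference. With the liver number as a replicate block the clustering difference was 0.0153, and of the PB minus SB windows chromosome 13 no longer passed (0.183, limma adjusted p = 0.091) and chromosome 18 did (0.216, limma adjusted p = 0.033); the block changed no other call. Leaving out chromosomes in turn gave 0.0185 to 0.123 for the density difference, 1.30 to 4.76 for PB reuse, 0.383 to 0.744 for SB reuse, 0.802 to 4.27 for their difference, -0.00485 to 0.0254 for the column 4 difference, 0.0574 to 0.194 for PB clustering, 0.0874 to 0.254 for SB clustering and -0.197 to 0.106 for their difference. Clustering passed in PB without chromosome 1 or 13, and in SB and for the difference without chromosome 6 (adjusted p = 0.046, 0.033, 0.0038 and 0.049).

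Windows denser in PB numbered 2 without shared positions, 9 centred on the median window and 2 by limma-trend, in place of 4. Windows denser in SB numbered 2 without shared positions and 2 when centred, in place of 6. PB windows sparser than the next 5 Mb numbered 3 without shared positions, in place of 5. With the next 2 Mb, 5 SB windows were denser and 6 sparser, in place of 8 and 2, and with the next 10 Mb 1 was sparser. Single windows changed sign as follows (log2). PB minus SB turned without shared positions on chromosomes 1 (0.0815), 7 (-0.0368), 8 (-0.299), 9 (0.0293) and 18 (-0.0781), and on chromosome 2 when centred (0.0833). Against the next 2 Mb, PB turned on chromosomes 6 (0.0231), 9 (0.478), 13 (-0.493), 16 (-0.0903) and 17 (-0.123), and SB on chromosomes 2 (-0.313), 7 (-0.285), 9 (0.0809), 13 (-0.128), 14 (-0.353) and 17 (-0.103). Against the next 10 Mb, PB turned on chromosomes 2 (0.139), 6 (0.266) and 19 (0.262), and SB on chromosomes 6 (0.0295), 18 (-0.114) and 19 (0.188). Without shared positions, PB over the next 5 Mb turned on chromosomes 18 (-0.0414) and 19 (0.185). Without voom weights, PB turned on chromosome 2 (0.0459) and SB on chromosomes 3 (0.0700), 14 (-0.114) and 18 (-0.0266). The start at 3200000, centring, limma-trend and the fit without weights were chosen after seeing the data. TMM scaling and the negative binomial count models of the plan were not run. The few sites of SB liver 13 limit every value of that liver.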
